A study of Arabidopsis thaliana with 16 samples.

Results

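The baseline transcriptome of methanol control cells was described from 4 arrays of Arabidopsis thaliana suspension cells that had received methanol alone, chosen by their labels as the 4 methanol columns of the set normalized with the TA arrays. They are 4 of the 16 columns of values and 4 of the 12 arrays of the study, whose other arrays hold cells given the inhibitors of cellulose synthesis TA or IXB. The cells were of ecotype Landsberg erecta, grown in Murashige and Skoog medium with B5 vitamins and 1 mg per L of the synthetic auxin 2,4-D, kept dark at 21 °C and shaken at 120 rpm. On day 3 after subculture each flask of 100 mL received 20 µL of methanol, and the cells were frozen 6 h later, so every value below belongs to cells that had met the solvent. Each replicate pooled 2 flasks. They are labelled as biological replicates, but nothing says that each had a parent culture of its own, and the spread given here may be partly technical. A culture of this kind is a single long-propagated line of dividing cells and stands for no organ of the plant.

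Plant suspension cells are callus-like cells held in division by an auxin in the medium. They form no leaves, roots or flowers, and in the dark their plastids carry out no photosynthesis. Dividing cells spend much of their transcription on ribosomes, glycolysis, chromatin and the cytoskeleton, while genes of specialised cells and of many stress responses are usually quiet. The ATH1 array reads each transcript with a probe set of short oligonucleotides, and its value on the log2 scale is a brightness. Probe sets bind their targets with different strength, so brightness sorts probe sets into dim and bright ones and does not order the abundance of transcripts of different genes. An array measures RNA per amount of total RNA, so fewer cells of a kind and less RNA per cell cannot be told apart.

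Levels fell into a large dim peak and a broad bright shoulder. Of 22746 probe sets, 11803 had a mean under 5 log2 and are called near background here, 7906 lay from 5 to under 8 (middle), 2823 from 8 to under 11 (bright) and 214 at 11 or more (brightest). The lowest anchor was the bacterial control transcript trpn, whose 3 probe sets read between 2.15 and 2.55. The hybridisation controls, which Affymetrix adds to the labelled sample in rising amounts, had medians of 5.39 for bioB, 7.41 for bioC, 9.46 for bioD and 11.52 for cre, in the order of their amounts. The poly-A control transcripts of Bacillus had medians of 3.13 for lys, 3.77 for phe, 5.21 for thr and 6.62 for dap. The medians of lys and phe thus lay under 5, as did the lowest probe set of the added bioB at 4.43. A level called near background therefore does not show that a transcript was absent. Array medians lay between 4.76 and 4.85, and every pair of arrays correlated at 0.995 to 0.998 over probe sets.

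**Figure D1:**
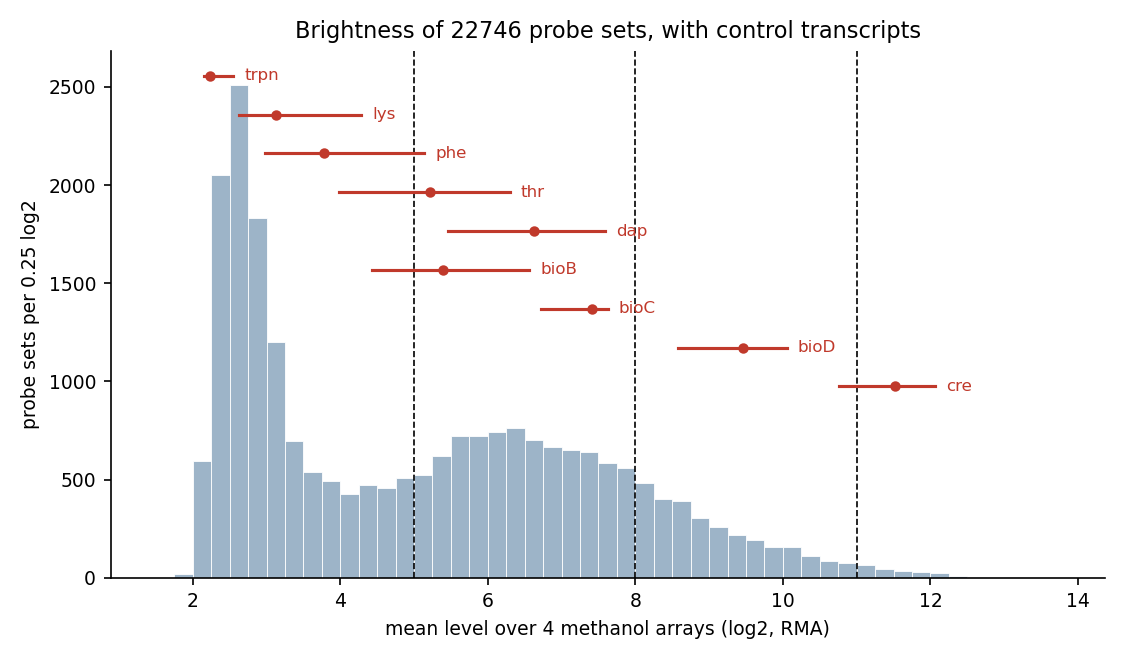
Histogram of the mean log2 level of 22746 probe sets over the 4 methanol arrays. Dashed lines mark the class borders at 5, 8 and 11, and red points and bars give the median and range of the probe sets of each control transcript, from trpn at 2.24 to cre at 11.52. The x axis is log2 level and the y axis is probe sets per 0.25 log2, and the dim peak lies below the border at 5.

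Probe sets of exactly 1 named gene stood for 13286 genes, each represented by its brightest such probe set. Of these genes 55.8% were near background, 10.7% had a mean of 8 or more and 0.58% were in the brightest class, which is 77 genes. The median gene read 4.32 log2, below the median of 4.79 over all probe sets. These shares are the background for the counts given for each group of genes.

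The 2 brightest genes were LCR69 and LCR68, small cysteine-rich peptides of the plant defensin family that are also known as PDF2.2 and PDF2.3. LCR69 read 13.35, 13.28, 13.20 and 13.32 log2 on replicates 1 to 4 (mean 13.29 ± 0.06, SD, n = 4). LCR68 read 13.17, 12.94, 12.76 and 13.01 (12.97 ± 0.17). Another defensin, PDF2.1, was seventh among all genes at 12.35, 12.17, 11.86 and 12.18 (12.14 ± 0.21). In the gene table of the TAIR10.1 assembly LCR69, PDF2.1 and LCR68 are neighbours on chromosome 2, with 1 unmeasured gene between LCR69 and PDF2.1. The next gene, LCR72 of the same family, was near background at 2.53 ± 0.18, so the bright run stopped within the cluster. Among the defensins of the defence list, PDF1.2 read 2.93 ± 0.09 and PDF1.2b 2.80 ± 0.17, both near background. PDF1.4, which is not in that list, lay in the middle class at 6.35 ± 0.50 and was among the most variable genes.

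Glycolysis supplied the next pair. GAPC2, a cytosolic glyceraldehyde-3-phosphate dehydrogenase, read 12.83, 12.63, 12.70 and 12.79 (12.74 ± 0.09), and TPI, triosephosphate isomerase, read 12.76, 12.72, 12.67 and 12.73 (12.72 ± 0.04). The 2 enzymes act side by side in the pathway, and the range over the 4 arrays was 0.20 log2 for GAPC2 and 0.10 for TPI. Of 48 genes written in the list of glycolysis and sugar entry, 10 were measured, with a median of 9.11, and 6 of them had a mean of 8 or more. The list split into bright and dim members with none in the middle class. Of the pyruvate kinase loci 3 were bright, AT5G63680 at 10.08 ± 0.10, AT5G08570 at 9.26 ± 0.06 and AT5G56350 at 9.24 ± 0.08, and the cytosolic glucose-6-phosphate isomerase AT5G42740 read 8.99 ± 0.07. Another 3 pyruvate kinase loci were near background, AT3G25960 at 3.06 ± 0.14, AT3G04050 at 3.05 ± 0.09 and AT4G26390 at 2.94 ± 0.28, as was the vacuolar invertase AT1G62660 at 2.98 ± 0.17. AT4G26390 was the most variable of the list and read 2.95, 2.69, 3.32 and 2.77.

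Translation accounted for much of the bright end. Among the 15 brightest genes were the ribosomal protein loci AT3G62870 (RPL7a) at 12.10 ± 0.06, AT1G52300 (RPL37) at 12.03 ± 0.04 and AT3G60245 (RPL37a) at 11.97 ± 0.10. AT5G19510, a subunit of elongation factor 1B that recharges the factor delivering aminoacyl-tRNA, read 12.30, 12.16, 12.20 and 12.27 (12.23 ± 0.06). Of 216 cytosolic ribosomal protein genes written, 124 were measured, with a median of 10.22 and a median percentile of 98.5 among all genes. Of the 124, 105 had a mean of 8 or more, beside 10.7% of all genes, and 32 were in the brightest class, beside 0.58%. The small subunit (43 genes, median 10.27), the large subunit (68 genes, 10.13) and the stalk (13 genes, 10.68) lay close together. Of 57 ribosomal proteins with a measured gene, 51 had at least 1 gene of mean 8 or more.

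Dim paralogues were the exception among ribosomal proteins. The 8 members near background included AT2G39590 (RPS15a) at 2.3 ± 0.11, AT3G10950 (RPL37a) at 2.47 ± 0.16 and AT1G02830 (RPL22) at 2.55 ± 0.16. For RPL37a the measured pair of genes thus read 11.97 and 2.47, and for RPL22 the brightest of 3 genes read 11.09. For 5 of the 8 dim genes another gene of the same protein had a mean of 8 or more. Ribosomal proteins are encoded by near-identical gene copies, and a probe set of one copy may also bind another, so single members are uncertain. Among 6 measured translation factors the median was 8.76, from AT5G12110, another elongation factor 1B subunit, at 7.69 ± 0.04 to AT5G19510. The helicase EIF4A-2 read 10.01 ± 0.03. AT5G54940, an initiation factor 1 gene, was the most variable of them and read 8.73, 8.63, 8.53 and 9.18.

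**Figure D2:**
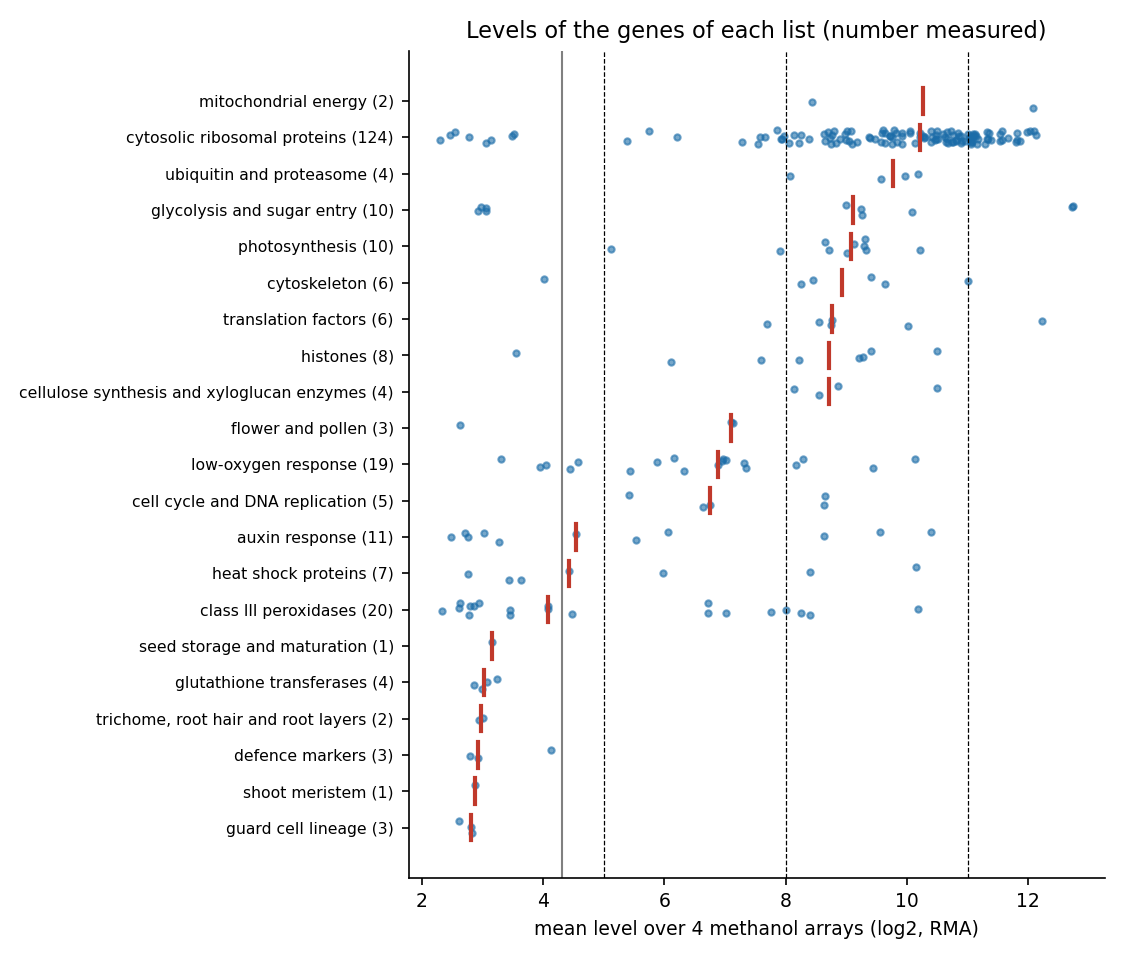
Mean log2 level over the 4 methanol arrays (x axis) of every measured gene of each list (y axis, number measured in brackets). Each point is 1 gene, red bars are list medians, the grey line is the median of all genes at 4.32 and dashed lines are the class borders, and the ribosomal proteins lie mostly above 8, while the glutathione transferases and the organ lists other than flower and pollen lie below 5.

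Respiration and protein turnover were represented by few measured genes, all bright. CYTC-1, a cytochrome c that carries electrons in the mitochondrial respiratory chain, read 12.13, 12.06, 12.02 and 12.11 (12.08 ± 0.05), and its relative CYTC-2 read 8.57, 8.51, 8.25 and 8.40 (8.43 ± 0.14). These were the 2 measured genes of 20 written for mitochondrial energy. The 4 measured genes of 41 for ubiquitin and the proteasome ran from PEX4, which acts at the peroxisome, at 8.08 ± 0.03 to AT1G45000, an ATPase of the proteasome cap, at 10.18 ± 0.07. RPN12a, a lid subunit of the cap, was the most variable of them at 9.70, 9.44, 9.57 and 9.58.

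Other genes of the brightest 15 carry only a locus tag in the annotation used here. AT3G48140 read 12.46 ± 0.10, AT1G63010 read 12.13 ± 0.11 and AT1G78040 read 11.93 ± 0.03. Also among the 15 was atpE, the epsilon subunit of the chloroplast ATP synthase, encoded in the plastid genome, at 12.08, 11.98, 11.91 and 11.98 (11.99 ± 0.07). The SDs of the 15 brightest genes lay between 0.03 and 0.21. Replicate 3 gave the lowest value for 10 of the 15 and replicate 1 the highest for 11, beside 26.7% and 20.7% of all genes. Of the 1419 genes with a mean of 8 or more, 565 were lowest on replicate 3 and 469 highest on replicate 1.

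Genes of photosynthesis were bright although the cells were kept dark. Of 51 nuclear genes written, 10 were measured, with a median of 9.07, and 8 of them had a mean of 8 or more, beside 10.7% of all genes. PSBY, a small protein of photosystem II, read 10.18, 10.29, 10.19 and 10.19 (10.21 ± 0.05). ATPC1, the gamma subunit of the chloroplast ATP synthase, read 9.32 ± 0.08, the photosystem subunits PSBW and PSAE-1 read 9.30 ± 0.09 and 9.30 ± 0.18, and RCA, the activase of Rubisco, read 9.13 ± 0.05. The Calvin cycle enzymes PRK and SBPASE read 9.01 ± 0.05 and 8.72 ± 0.14. The 2 antenna proteins of the same name differed, LHCB4.1 at 8.64 ± 0.16 and LHCB4.2 at 5.12 ± 0.23, the dimmest and most variable of the list, with 4.88, 5.25, 5.36 and 4.97.

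Transcripts of the plastid genome, a group formed by annotation after seeing the data, were bright as a whole. The 69 measured genes had a median of 8.38 and ran from 4.49 for ndhF to 11.99 for atpE, and 43 of them had a mean of 8 or more. By function, the ATP synthase (6 genes) had a median of 9.83, photosystem I (5) of 9.51, the plastid RNA polymerase (4) of 8.90, ribosomal proteins (15) of 8.85, the cytochrome b6f complex (6) of 7.77, photosystem II (15) of 7.73 and the NDH complex (10), which feeds electrons back into the photosynthetic chain, of 6.60. The groups overlapped widely. Within the ATP synthase, atpE and atpB (11.80 ± 0.06) were in the brightest class and atpI was in the middle class at 5.68 ± 0.16. Besides atpE and atpB, rps4 at 11.54 ± 0.14 and clpP, a protease subunit, at 11.50 ± 0.03 made up the 4 brightest-class members. The gene rbcL, the large subunit of Rubisco, read 8.57, 8.10, 7.93 and 7.92 (8.13 ± 0.31), highest on replicate 1. The 3 members near background were petD at 4.99 ± 0.24, ndhK at 4.95 ± 0.21 and ndhF at 4.49 ± 0.14.

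**Figure D3:**
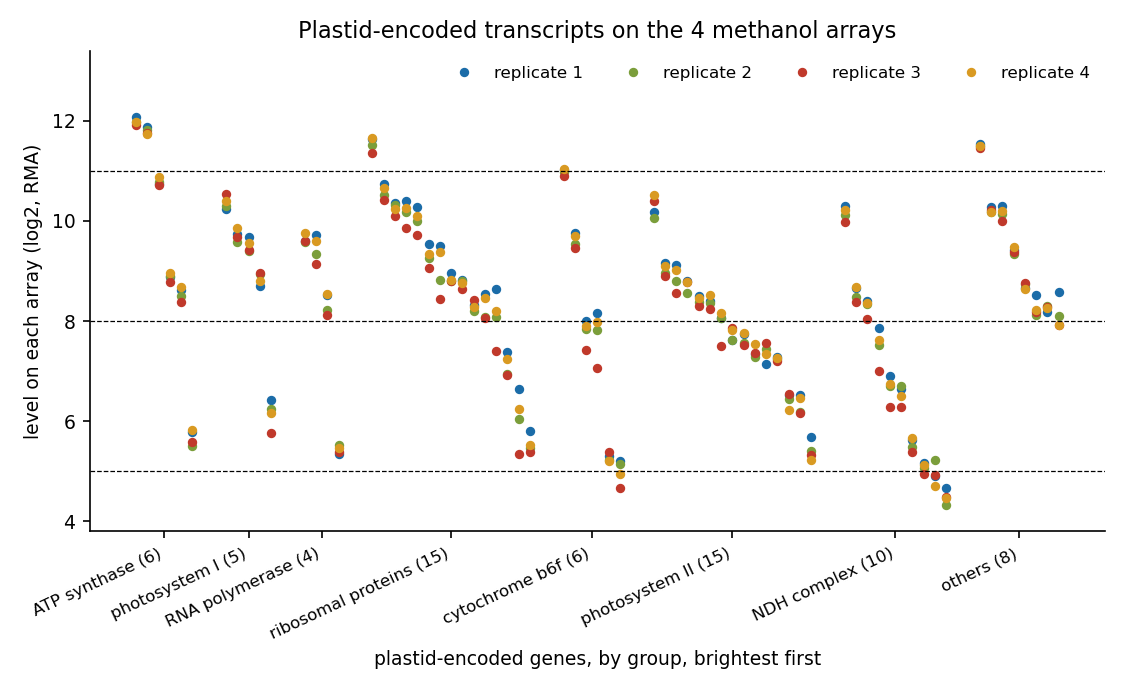
Log2 level (y axis) of the 69 plastid-encoded genes on each of the 4 methanol arrays (colours), grouped by function along the x axis with the brightest gene of each group first. Dashed lines are the class borders at 5, 8 and 11, and the red points of replicate 3 lie lowest for 44 of the 69 genes.

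Genes of dividing cells were bright or of middle level. Of 37 histone genes, 8 were measured, with a median of 8.71. The H2B genes spread from HTB4 at 10.50 ± 0.02 through HTB2 at 9.40 ± 0.18 to HTB1 at 7.59 ± 0.12, and the most variable, HTB11, read 8.41, 8.27, 7.88 and 8.34. Of the linker histones, AT1G06760 (H1.1) and AT2G30620 (H1.2) read 9.27 ± 0.05 and 9.20 ± 0.07, while HIS1-3, known as a drought-responsive linker histone, was near background at 3.56 ± 0.10. Among 5 measured genes of 53 for the cell cycle, AUR1, a kinase of the mitotic spindle and cell plate, was bright at 8.65 ± 0.07, and AUR2 and AUR3 were of middle level at 6.75 ± 0.01 and 6.64 ± 0.10. PRL, a subunit of the helicase that opens replication origins, read 8.64 ± 0.06. SIM, an inhibitor of cyclin-dependent kinases known from leaf hairs, was the dimmest and most variable at 5.59, 5.59, 5.05 and 5.44 (5.42 ± 0.25). Of 6 measured tubulins, TUA6 read 11.01 ± 0.10 and 4 beta-tubulins lay between 8.26 and 9.64, while TUB5 was near background at 4.02 ± 0.27, with 4.24, 4.25, 3.81 and 3.76.

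The 4 measured genes of 20 in the list of cellulose synthesis and xyloglucan enzymes were bright. EXGT-A3, a xyloglucan-remodelling enzyme, read 10.59, 10.60, 10.39 and 10.42 (10.50 ± 0.11). It is 1 of the xyloglucan endotransglucosylase/hydrolases, of which the 9 genes with an XTH symbol had a median of 2.71 and 6 were near background, with XTH19 the brightest at 8.84 ± 0.27. COB, an anchored protein needed for oriented cellulose deposition, read 8.87 ± 0.03, and AT5G42860 (CC2) and AT1G45688 (CC1), companions of cellulose synthase, read 8.55 ± 0.03 and 8.14 ± 0.05. Class III peroxidases, secreted enzymes that cross-link or loosen walls, ranged more widely. Of 29 written 20 were measured, with a median of 4.08, close to the 4.32 of all genes. Near background were 12 of the 20, beside 55.8% of all genes. The brightest, AT2G37130, read 10.02, 10.02, 10.32 and 10.35 (10.18 ± 0.18), and the dimmest, AT5G66390, read 2.34 ± 0.11. The most variable was AT5G06730, at 5.03, 4.59, 3.95 and 4.34 (4.47 ± 0.46), lowest on replicate 3.

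Auxin genes ranged from bright to near background. Of 36 written 11 were measured, with a median of 4.54, close to the 4.32 of all genes. GH3.3, which conjugates auxin to amino acids, read 10.46, 10.34, 10.44 and 10.37 (10.40 ± 0.06), and the Aux/IAA repressors IAA30 and IAA20 read 9.56 ± 0.16 and 8.63 ± 0.09. Within the same families GH3.1 and GH3.17 read 3.28 ± 0.18 and 2.71 ± 0.09, and IAA31 was the dimmest at 2.48 ± 0.11. IAA18 was the most variable, at 6.33, 6.18, 5.66 and 6.09.

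Heat shock genes were near background about as often as genes at large. Of 7 measured heat shock genes of 26 written, the constitutive chaperones AT3G09440 (HSC70-3) and Hsp70-2 read 10.15 ± 0.08 and 8.40 ± 0.11, and 4 were near background, beside 55.8% of all genes. The list median was 4.43, beside 4.32 for all genes. The dimmest was ATHSP22.0 at 2.77 ± 0.15. Among the 7 measured, the small mitochondrial chaperone AT5G51440 (HSP23.5) had the largest SD, with 3.28, 3.14, 3.31 and 4.85 (3.64 ± 0.81), high on replicate 4 alone. All 4 measured glutathione transferases of 25 written were near background, from GSTU18 at 2.87 ± 0.02 through GSTU20 at 2.99 ± 0.09 to GSTU25 at 3.25 ± 0.07. The 3 measured defence markers of 13 were near background too, the brightest and most variable being SAG101, a lipase-like immune regulator, at 4.12, 4.28, 3.73 and 4.41 (4.14 ± 0.30).

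Markers of organs and specialised cells were checked against the label of undifferentiated suspension cells. Of 88 genes in 7 such lists 10 were measured, from 5 lists, and 8 of these 10 were near background, between 2.61 and 3.17, beside 55.8% of all genes. They were MUTE at 2.61 ± 0.15, FMA at 2.82 ± 0.08 and a further regulator of the stomatal lineage, CLV3 of the shoot meristem at 2.87 ± 0.20, the root hair expansins EXPA7 and EXPA18 at 2.95 ± 0.21 and 3.02 ± 0.14, the oleosin AT3G01570 of seeds at 3.17 ± 0.12 and the pollen actin ACT12 at 2.63 ± 0.13. The exceptions were TUA1, a tubulin known from pollen, at 7.06, 7.20, 7.22 and 7.04 (7.13 ± 0.10), and the reproductive actin ACT11 at 7.09 ± 0.03. Vascular and epidermal markers, arabinogalactan proteins and aquaporins had no single-gene probe set in the annotation used here and were not analysed.

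Gene families formed from shared symbols extended the picture. There were 28 families with at least 8 measured genes, 417 genes in all, and 19 of the 28 had a median under 5. Among the highest medians were those of the plastid RPS genes (8 genes, 8.52, from rps14 at 5.55 ± 0.18 to rps4) and the autophagy ATG genes (8 genes, 7.79). ATG8 proteins coat the membranes of autophagosomes, and ATG8F read 9.89, 9.77, 9.50 and 9.84 (9.75 ± 0.17), whereas ATG8H was near background at 3.11 ± 0.07. The lowest medians were those of genes with CYP symbols (26 genes, 2.52), most of them cytochrome P450 genes, and LCR peptides (8 genes, 2.61). Of the CYP genes 24 were near background, from CYP71B34 at 2.16 ± 0.02, and the brightest was the P450 gene CYP71B6 at 7.67 ± 0.04. The symbol also takes in the cyclophilins CYP71, the other member above 5, at 7.60 ± 0.06, and CYP59, which was near background. The LCR family had no intermediate member, with LCR69 and LCR68 in the brightest class and the other 6 between LCR24 at 2.33 ± 0.04 and 2.98.

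Several families with low medians had 1 or 2 members of mean 8 or more. For EXPA, BGLU and TBL these were 1 of 10, 2 of 20 and 2 of 22 genes, close to the 10.7% of all genes. The alpha-expansin EXPA4, which loosens walls, read 10.49 ± 0.17, while 8 of 10 measured EXPA genes were near background. BGLU15 read 11.29 ± 0.11 and BGLU42 read 8.54 ± 0.09 in a family of 20 beta-glucosidases with a median of 2.90. TBL36 and TBL39, of a family that acetylates wall polysaccharides, read 11.26 ± 0.05 and 11.15 ± 0.05 against a family median of 3.28 over 22 genes. All 14 measured SWEET sugar transporters and all 11 GSTU genes were near background, with medians of 2.87 and 2.91. UDP-glycosyltransferases (47 genes) had a median of 3.02, and 39 were near background, beside 55.8% of all genes.

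The dimmest genes lay at or below the trpn control. AT1G54926 and AT1G27790 read 1.86 ± 0.07 and 1.86 ± 0.04, AT5G50335 read 1.91 ± 0.07, and AT3G23720 and AT4G16010 read 1.92 ± 0.03 and 1.92 ± 0.13. A value in this range sets only a bound on the transcript.

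Most genes differed little between the 4 arrays. The median SD was 0.11 log2 over all probe sets, 0.125 for those near background and 0.069 for the brightest class, so the bright values are the more precise. The smallest SDs among genes with a mean of 8 or more were those of AT5G21090 (9.96 ± 0.005), AT2G04400 (8.70 ± 0.005), RAB6A, a GTPase of Golgi traffic (9.38 ± 0.007), AT2G37120 (8.53 ± 0.008) and AT2G40765 (8.85 ± 0.009). In the second normalization of the same arrays their SDs were 0.04 to 0.07, so the order among the most even genes is not a stable property.

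A probe set was counted as variable when its SD over the 4 arrays was at least 0.5 log2 and its mean at least 5. Of 22746 probe sets 32 met this, of which 14 belonged to 1 named gene, 2 to several genes and 16 are unnamed here. The 14 genes are 0.105% of the 13286. The array farthest from the others was replicate 3 on the low side for 15 of the 32, replicate 4 on the high side for 8, replicate 2 on the low side for 6, replicate 3 on the high side for 2 and replicate 1 on the high side for 1. The most variable probe set of all is unnamed here and read 5.48, 5.59, 6.37 and 7.60. Genes at the border were AT4G39675, with an SD of 0.503, and PDF1.4, with 0.499.

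**Figure D4:**
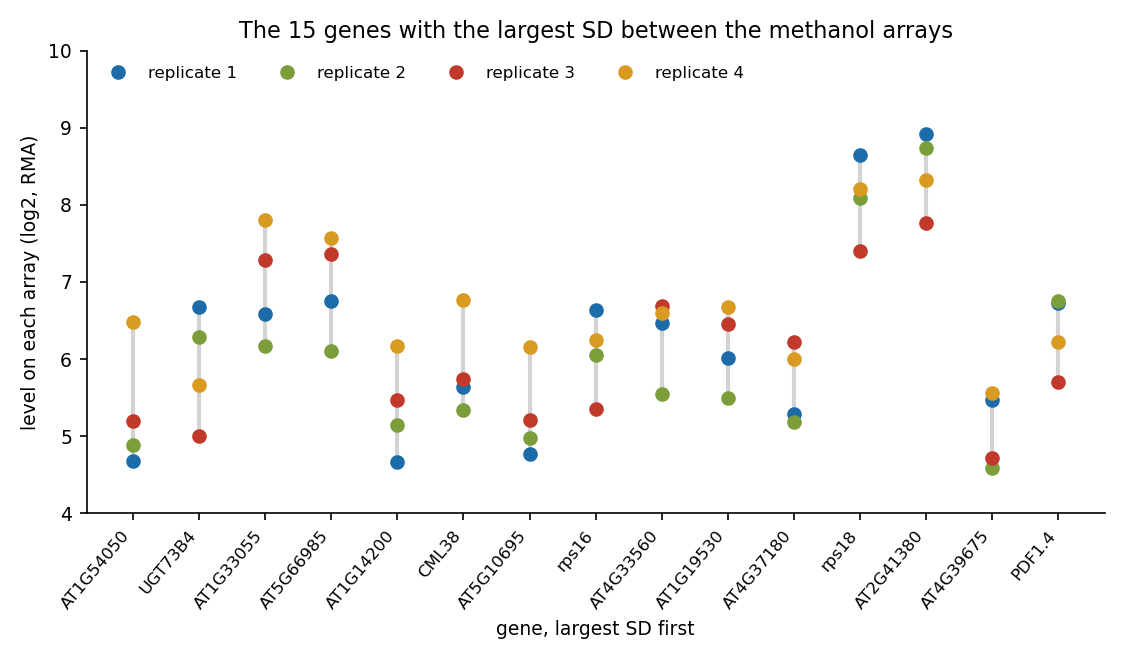
Log2 level (y axis) on each of the 4 methanol arrays (coloured points) of the 15 genes with the largest SD among those with a mean of at least 5 (x axis, largest SD first). Grey bars span the range, and replicate 4 is highest for AT1G54050, CML38 and AT5G10695 while replicate 3 is lowest for UGT73B4, rps16, rps18, AT2G41380 and PDF1.4.

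One pattern was a low replicate 2 and a high replicate 4 in genes known to rise when oxygen is short. Of 40 genes written 19 were measured, with a median level of 6.89, and 14 of them were lowest on replicate 2 and 12 highest on replicate 4, beside 24.3% and 18.4% of all genes. The median deviation of the 19 from their own means was 0.02 log2 on replicate 1, -0.45 on replicate 2, 0.10 on replicate 3 and 0.27 on replicate 4. AT1G33055 read 6.59, 6.16, 7.29 and 7.80 (6.96 ± 0.73), a span of 3.10-fold. AT5G66985 read 6.75, 6.11, 7.36 and 7.57 (6.95 ± 0.66). AT4G33560 read 6.47, 5.54, 6.68 and 6.60 (6.32 ± 0.53), and AT1G19530 read 6.02, 5.49, 6.46 and 6.67 (6.16 ± 0.52). With CML38, a calcium-binding protein that read 5.64, 5.34, 5.74 and 6.77 (5.87 ± 0.62), these are 5 variable genes among the 19, beside 0.105% of all genes. The list was written with the variation of these genes in earlier results known, so its count is no independent support. The brightest member, PDC2, a pyruvate decarboxylase of ethanol fermentation, moved less, at 10.16, 9.97, 10.25 and 10.15 (10.13 ± 0.12), and the dimmest, AT3G03270, read 3.34, 2.82, 3.59 and 3.52. Without replicate 2 only 2 members of the list remained variable, and without replicate 4, 3 did.

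A second set of genes was highest on replicate 4. AT1G54050 had the largest SD of any gene with a mean of at least 5 and read 4.68, 4.88, 5.19 and 6.47 (5.31 ± 0.81), a span of 3.47-fold. AT5G10695 read 4.77, 4.97, 5.21 and 6.15 (5.28 ± 0.61). AT1G14200 was highest there too but was uneven on the other arrays, at 4.66, 5.14, 5.47 and 6.16 (5.36 ± 0.63). CML38 and the dim chaperone AT5G51440 described above were also highest on replicate 4.

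The third pattern was a low replicate 3. UGT73B4, a UDP-glycosyltransferase, read 6.67, 6.29, 5.0 and 5.66 (5.91 ± 0.73), AT2G41380 read 8.92, 8.74, 7.77 and 8.33 (8.44 ± 0.51) and PDF1.4 read 6.73, 6.75, 5.70 and 6.22. The plastid ribosomal protein genes rps16, at 6.63, 6.05, 5.35 and 6.25 (6.07 ± 0.54), and rps18, at 8.65, 8.08, 7.41 and 8.20 (8.08 ± 0.51), were the 2 variable members of the plastid genome. Other plastid genes ran the same way, with rpl32 at 9.50, 8.83, 8.44 and 9.38 and petG, of the cytochrome b6f complex, at 8.17, 7.82, 7.06 and 7.98. Of the 69 plastid genes 44 were lowest on replicate 3 and 40 highest on replicate 1, and of the 15 plastid ribosomal protein genes these numbers were 14 and 13. Of all 13286 genes 26.7% were lowest on replicate 3 and 20.7% highest on replicate 1. Among the 1419 genes with a mean of 8 or more these numbers were 565 and 469. The 4 arrays were also quantile normalized again, a step added after seeing the data. Then 36 of the 69 plastid genes were lowest on replicate 3 and 38 highest on replicate 1. Of the 1419 genes with a mean of 8 or more these numbers were then 441 and 383, and of all 13286 genes 3870 and 3144. For the 15 plastid ribosomal protein genes the numbers were then 10 and 13. In the values as deposited, 0 plastid genes remained variable without replicate 3, and likewise without replicate 1. Without replicate 2, and likewise without replicate 4, 4 plastid genes were variable. Among ATG8 genes, ATG8E read 7.27, 7.19, 6.22 and 7.10 (6.94 ± 0.49), and 6 of the 7 measured were lowest on replicate 3.

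A tilt with brightness accompanied this pattern. The median deviation on replicate 3 was 0.04 log2 for probe sets near background, -0.02 for the middle and the bright class and -0.06 for the brightest class, and on replicate 1 it was -0.02, -0.01, 0.01 and 0.04 in the same order. Cytosolic ribosomal proteins followed it, with median deviations of 0.07 on replicate 1 and -0.07 on replicate 3, and 75 of 124 were lowest on replicate 3. When the 4 arrays were quantile normalized again, a step added after seeing the data, these 2 values became 0.04 and -0.04, while those of the plastid ribosomal protein genes went from 0.25 and -0.21 to 0.24 and -0.19. The 10 nuclear photosynthesis genes ran opposite, with median deviations of -0.09 on replicate 1 and 0.07 on replicate 3. Of these, 8 were lowest on replicate 1, beside 26.2% of all genes. In the second normalization 6 were lowest on replicate 1, 2 on replicate 2 and 2 on replicate 3. AT5G28060, the most variable ribosomal protein gene (RPS24), read 9.87, 9.66, 9.19 and 9.73 (9.61 ± 0.29). Control probe sets for RNA integrity differed between the arrays. In 1 GAPDH pair the probe set at the 3′ end exceeded that at the 5′ end by 0.00, -0.03, -0.17 and 0.02 log2 on replicates 1 to 4, and for actin the difference was 1.28, 1.21, 1.05 and 1.24. For ubiquitin it was -0.34, -0.31, -0.38 and -0.27, so these 3 pairs were lowest on replicate 3. Another GAPDH pair differed by 0.30, 0.00, 0.03 and 0.21 and was lowest on replicate 2. In a second actin pair the 3′ probe set read 11.08, 10.96, 10.95 and 11.02 and the 5′ probe set 7.01, 6.72, 6.82 and 7.11. Here the gap was smallest on replicate 4. A second ubiquitin pair read 11.62, 11.57, 11.34 and 11.52 at the 3′ end. At the 5′ end it read 10.57, 10.32, 10.17 and 10.45, with the smallest gap on replicate 1. The 25S ribosomal RNA probe set read 11.61, 11.26, 11.17 and 11.78. The part of these differences in the result was not tested.

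**Figure D5:**
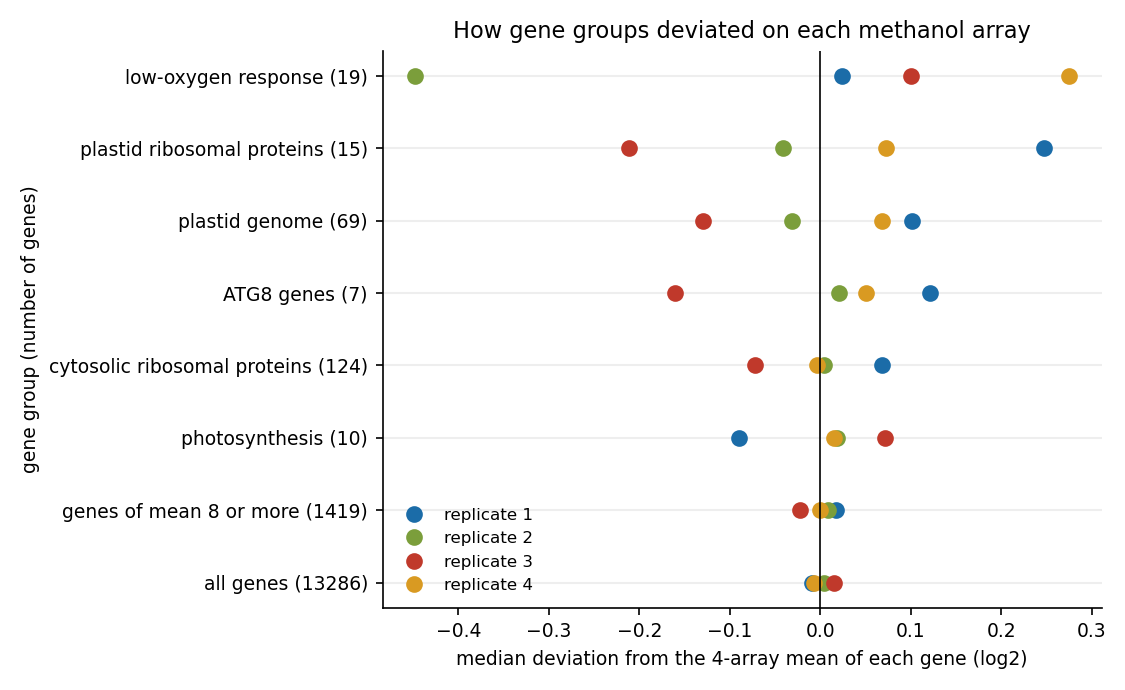
Median deviation (x axis, log2) of the genes of each group (y axis, number of genes in brackets) from their own 4-array means, for each methanol replicate (colours). The low-oxygen genes lie at -0.45 on replicate 2 and 0.27 on replicate 4, and the plastid ribosomal protein genes at 0.25 on replicate 1 and -0.21 on replicate 3, while all genes lie near 0.

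The remaining 2 variable genes were not grouped with those above. AT4G37180 read 5.28, 5.18, 6.22 and 6.00 (5.67 ± 0.52), with replicates 3 and 4 above replicates 1 and 2. AT4G39675 read 5.47, 4.58, 4.72 and 5.56 (5.08 ± 0.50), with replicates 1 and 4 above replicates 2 and 3. Like the first pattern, it was lowest on replicate 2 and highest on replicate 4.

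The same 4 arrays normalized a second time, with the IXB arrays, gave a check on the arithmetic and none on the biology. Of the 32 variable probe sets 26 had an SD of at least 0.5 there too, and for 31 the farthest array and its direction were the same. Of the 14 named variable genes 8 met both borders there, and rps16 and rps18 did not, with SDs of 0.45 each. The 4 arrays of TA-treated cells were used only for their spread. The 32 probe sets had a median SD of 0.63 on the methanol arrays and 0.28 on the TA arrays, where the median over all 10943 probe sets with a mean of at least 5 was 0.12. The 32 were chosen by their SD on the methanol arrays. The value of 0.63 is thus high by selection, and the pair does not compare the treatments. Of the 32, 5 had an SD of at least 0.5 on the TA arrays, as did 17 of the 10943. The SD of AT1G54050 was 1.07 on the TA arrays and that of AT1G33055 was 0.24.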

How the data were processed

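RNA of the 4 methanol replicates was hybridised to Affymetrix ATH1 arrays. The authors deposited log2 values from RMA, a method named in the submitters' processing notes without version or settings (per the labels). It subtracts background, aligns the distributions of the arrays and merges the probes of a set, so a shift of all transcripts is not visible. The methanol arrays appear in 2 sets normalized separately, whose methanol column medians averaged 4.80 and 5.25 log2. The TA-set values are the main ones, and the second set served as a check after its columns were lowered by the difference of 0.453. Of 22810 probe sets, 64 controls were left out.

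The annotation lists 14016 probe sets. Of these, 13513 have 1 gene symbol, and 13436 matched the TAIR10.1 gene table by gene ID, which served for names only, with no coordinates since no genome build is named. For 144 genes with several probe sets the brightest was used; in 77 of them the probe sets differed by over 1 log2. The tables carry no gene descriptions, so list membership and roles by locus come from general knowledge.

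No comparison between groups was tested, since there is 1 group, and Dixon's criterion was applied only to single out arrays of the named genes. Percentiles, medians, SDs (n = 4) and counts were computed in Python 3.11.15 with numpy 2.4.6 and pandas 2.3.3, figures with matplotlib 3.10.9, and the code was tested on simulated data. The number of arrays limits the precision. Genes named by rule were the 15 brightest, the 5 dimmest, the 15 with the largest SD (mean of at least 5), the 5 with the smallest SD (mean of at least 8), the brightest, dimmest and most variable member of each of 25 lists, and the brightest and dimmest member of the 3 highest and 3 lowest families by symbol. Some genes and families that the rule takes are not reported here. Other members were named after their values were seen. The members, lists and borders were chosen with earlier results of these data known. Alternatives were other borders, levels by median, other probe set choices, leaving out each array and the second normalization.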

Additional observations from a re-analysis of the deposited data

Results flagged for a closer look

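Of 95 genes named by rule, 5 had 1 array whose gap to the nearest other array was, as a share of the range of the 4 values, above Dixon's critical value. Chance flags about 1 in 20 groups. AT5G51440 read 4.85 log2 on replicate 4 against 3.14 to 3.31 on the other arrays. The other flagged genes differ far less in size. PSBY read 10.29 on replicate 2 against 10.18 to 10.19, AT1G45000 read 10.28 on replicate 2 against 10.13 to 10.16, GSTU18 read 2.89 on replicate 4 against 2.86, and GSTU20 read 2.85 on replicate 2 against 3.02 to 3.05. What lies behind these values was not tested.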

How the results depend on the processing

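The count of probe sets near background stayed between 11776 and 11841 when each array was left out, and that of the brightest class between 210 and 218. In the shifted second normalization 11829 were near background, but the brightest class fell from 214 to 163. With 1 probe set per gene the counts were 7412 near background and 77 brightest, by construction since fewer features enter. A border of 10 gave 639 brightest probe sets and one of 12 gave 37. The count of variable probe sets ran from 17, without replicate 3, to 44, without replicate 4. It was 7 with a minimum level of 7, 68 with an SD border of 0.4 and 6 with one of 0.7, and 30 after quantile normalization again, chosen after seeing the data. Of the 14 variable genes, 10 remained without replicate 3 and 8 without replicate 4. List medians moved by -0.21 to 0.12 log2 when an array was left out, and in the shifted second normalization by -0.26 to 0.21, which for 14 of 21 lists with a measured gene exceeded the SD between arrays. Without probe sets that can bind several transcripts the median of the defence markers was higher by 0.61. The other list medians stayed the same. No paired analysis was possible because there is 1 group and no comparison between groups. The planned search of promoters for motifs was not run, since it needs sequences that were not used here. Values near background carry little information on differences between genes, and the number of arrays limits every SD.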
